A study of Rattus norvegicus with 2 samples.

Results

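Complement genes were described across the cell types of the hypothalamus in 2 single-cell libraries of female Sprague Dawley rats. The genes were the 3 chains of C1q (*C1qa*, ENSRNOG00000012807; *C1qb*, ENSRNOG00000012749; *C1qc*, ENSRNOG00000012804), the central component *C3* (ENSRNOG00000046834), the receptors *C3ar1* (ENSRNOG00000009211) and *C5ar1* (ENSRNOG00000047800), and *Itgam* (ENSRNOG00000019728), a subunit of complement receptor 3. They were listed by name, and all 7 were found once among the 32883 genes that both libraries list. Each gene had at least 50 UMIs in the kept cells of each library. A UMI is a random tag that marks 1 captured RNA molecule, so that reads copied from it are counted once. Cell barcodes with at least 200 detected genes were kept.

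Tissue that held the AVPV and the ARC was taken on PND 29 (4 weeks of age) and dissociated with collagenase. In the SC300 group, 300 µg of estradiol benzoate in silicone had been implanted as a capsule on PND 0.5. The paper reports that serum estradiol of SC300 rats was still above that of controls at about the age of sampling. In the hypothalamus it reports a return to the control level in the neonatal period. The Control group is labelled intact, and the methods give it an oil-filled capsule. The labels name no transgene or deletion, and tissue of 3 rats was pooled into 1 library per group. Variation between rats was therefore not measured, no test between the groups was possible, and every interval below is a 95% interval for counting error only.

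Complement is a cascade of secreted proteins and their receptors. C1q, built from the products of *C1qa*, *C1qb* and *C1qc*, starts the classical arm when it binds antibody or tagged surfaces, and it leads to the cleavage of C3. C3 fragments are recognised by complement receptor 3, a pair of *Itgam* and *Itgb2* products on microglia that takes part in the removal of synapses, while the small fragments of C3 and C5 act on the receptors encoded by *C3ar1* and *C5ar1*. In the brain, C1q is known to be made mainly by microglia and by the macrophages of the meninges and vessel walls.

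The Control library held 4296 kept cells of 4488 barcodes with 51382276 UMIs, and the SC300 library 4379 of 4524 barcodes with 56390355 UMIs. Median depth was 7986 and 8182 UMIs per cell, and 7 kept barcodes occurred in both libraries. Each cell was assigned to a type by lists of marker genes that held none of the 7 complement genes. A cell needed 3 detected markers of a list and a mean level at least 2 times that of the next list. The microglia list (*Tmem119*, *P2ry12*, *Sall1* and others) took 422 Control cells and 418 SC300 cells. The macrophage list (*Pf4*, *Mrc1*, *Cd163* and others) took 14 and 40 cells. These types are called microglia-like and macrophage-like. The gate was strict and left 881 and 767 cells unassigned, so its counts are not a census of the tissue. In microglia-like cells the 8 genes of the macrophage list summed to 268.0 CPM in Control and 245.0 CPM in SC300, against 13555 and 9976 CPM in macrophage-like cells. Most of that sum was *Lyve1* (174.0 and 167.0 CPM) and *Pf4* (76.3 and 52.3 CPM), while *Cd163*, *F13a1* and *Stab1* had 0 UMIs in both libraries. In macrophage-like cells the summed microglia list stood at 126 CPM in Control and 202 CPM in SC300, against 3046 and 2980 CPM in microglia-like cells. Of the macrophage list, *Pf4* differed most between the macrophage-like cells of Control and SC300 (6023 and 2395 CPM). *F13a1* (725.0 and 1014 CPM) and *Cd163* (309.0 and 373.0 CPM) went the other way. CPM is the number of UMIs of a gene scaled to a total of 1000000 UMIs of the cell type.

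The 3 C1q genes lie next to each other in the order *C1qb*, *C1qc* and *C1qa* in the RefSeq annotation of GRCr8, with no other listed gene between them. Their levels varied together across the 7 gated types with at least 20 cells in each library, which leave out macrophage-like cells. The start regions of the chains for which RefSeq holds one are therefore shown. Each runs from 250 bases before to 50 bases after the annotated start, 5′ to 3′ on the strand of the gene, which is the minus strand for both. The *C1qa* region is chr5:154419884-154420183 and the *C1qb* region chr5:154407778-154408077, both in GRCr8 coordinates. Capitals mark GAGGAA and GGAAGT on either strand, which are letters of the core bound by PU.1, a transcription factor of myeloid cells, and they can overlap each other.
C1qa: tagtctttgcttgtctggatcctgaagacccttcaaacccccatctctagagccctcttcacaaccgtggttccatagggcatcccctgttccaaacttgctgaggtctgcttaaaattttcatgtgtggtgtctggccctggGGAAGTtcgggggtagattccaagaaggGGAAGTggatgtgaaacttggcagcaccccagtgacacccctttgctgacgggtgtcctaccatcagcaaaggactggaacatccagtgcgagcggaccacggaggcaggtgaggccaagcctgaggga
C1qb: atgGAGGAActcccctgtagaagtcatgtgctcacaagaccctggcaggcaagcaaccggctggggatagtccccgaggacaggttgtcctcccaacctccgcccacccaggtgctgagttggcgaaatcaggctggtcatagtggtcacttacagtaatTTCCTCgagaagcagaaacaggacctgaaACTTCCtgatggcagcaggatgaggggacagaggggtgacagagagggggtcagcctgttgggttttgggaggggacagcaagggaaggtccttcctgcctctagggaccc

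The *C1qa* region held GGAAGT at positions -107 and -79 from the start. The *C1qb* region held GAGGAA at -247 and, on the opposite strand, at -90, and GGAAGT on the opposite strand at -61. At least 1 of both motifs was present in 42.3% of the 33469 promoters of the same length, so such matches are common. The *Itgam* region held GAGGAA at -151 and, on the opposite strand, at -39, and neither motif was found in the *C3* and *C3ar1* regions. The *Itgam* region (chr1:192089342-192089641) is set by a start inside the gene, whose listed first base is 192089496, and its positions count from that inner start. The *C3ar1* region (chr4:157756481-157756780, minus strand) also uses a start inside the gene, whose listed end is 157756609. TATAAA and CCAAT, searched on both strands, were found in none of the 5 regions, against 14.2% and 37.5% of all promoters. Binding was not measured, and a match of letters is a description only.

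The C1q chains were the most abundant of the 7 genes in microglia-like cells. *C1qa* was at 8234 CPM (8136 to 8334) in Control and 8509 CPM (8410 to 8608) in SC300. *C1qb* followed at 6571 CPM (6483 to 6660) and 6916 CPM (6827 to 7006). *C1qc* was the lowest chain, at 3167 CPM (3106 to 3229) and 3483 CPM (3420 to 3547). The counts are 3′ tags, 1 per molecule, and carry no term for gene length. The order *C1qa*, *C1qb*, *C1qc* was the same in both libraries, and the intervals of the chains did not overlap. Together the chains gave 17972 CPM in Control and 18908 CPM in SC300.

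Nearly every microglia-like cell carried these transcripts. *C1qa* had a UMI in 421 of 422 Control cells and in all 418 SC300 cells, and *C1qc* in 419 and 418 cells. The median Control cell held 60 UMIs of *C1qa*, 48 of *C1qb* and 23 of *C1qc*, and the median SC300 cell 64, 53 and 27. Within single cells the *C1qa* level spread moderately, with Control quartiles of 6706 and 9841 CPM and SC300 quartiles of 6988 and 10080 CPM. The 5 cells with the most *C1qa* UMIs held 3.08% and 2.93% of them, so no few cells carried the level. Across microglia-like cells, the levels of *C1qa* and *C1qb* correlated with Pearson r = 0.70 (Control, 422 cells) and r = 0.59 (SC300, 418 cells). The values for *C1qa* and *C1qc* were 0.59 and 0.40, and for *C1qb* and *C1qc* 0.58 and 0.44. By rank (Spearman), *C1qa* and *C1qb* stood at 0.63 in Control and 0.56 in SC300. *C1qa* and *C1qc* stood at 0.41 and 0.38 by rank, and *C1qb* and *C1qc* at 0.49 and 0.42. For each pair the libraries were thus closer by rank than by Pearson r. A few Control cells had no UMI of a chain, while every SC300 cell had all chains. The part of those Control cells in the Pearson values was not tested. The microglia-like cells share a library and a depth range, and the correlations are given as a description.

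Macrophage-like cells also held all 3 chains, at another balance. *C1qa* was at 4418 CPM (4022 to 4843) and 5168 CPM (4923 to 5423). *C1qb* was at 4254 CPM (3866 to 4671) and 3511 CPM (3309 to 3722). *C1qc* was at 4293 CPM (3903 to 4711) and 4746 CPM (4510 to 4990). *C1qa* and *C1qb* were thus lower than in microglia-like cells in both libraries, with log2 ratios of -0.90 and -0.72 for *C1qa* and of -0.63 and -0.98 for *C1qb*. *C1qc* was higher, with log2 ratios of 0.44 and 0.45. That direction for *C1qc* depended on how cells were assigned. With clusters in place of the gate, which took 25 and 54 macrophage-like cells, the *C1qc* ratio was -0.67 in Control and -0.05 in SC300. Only 14 Control cells stood behind the macrophage-like values, and 5 of them held 55.8% of the *C1qa* UMIs.

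**Figure D1:**
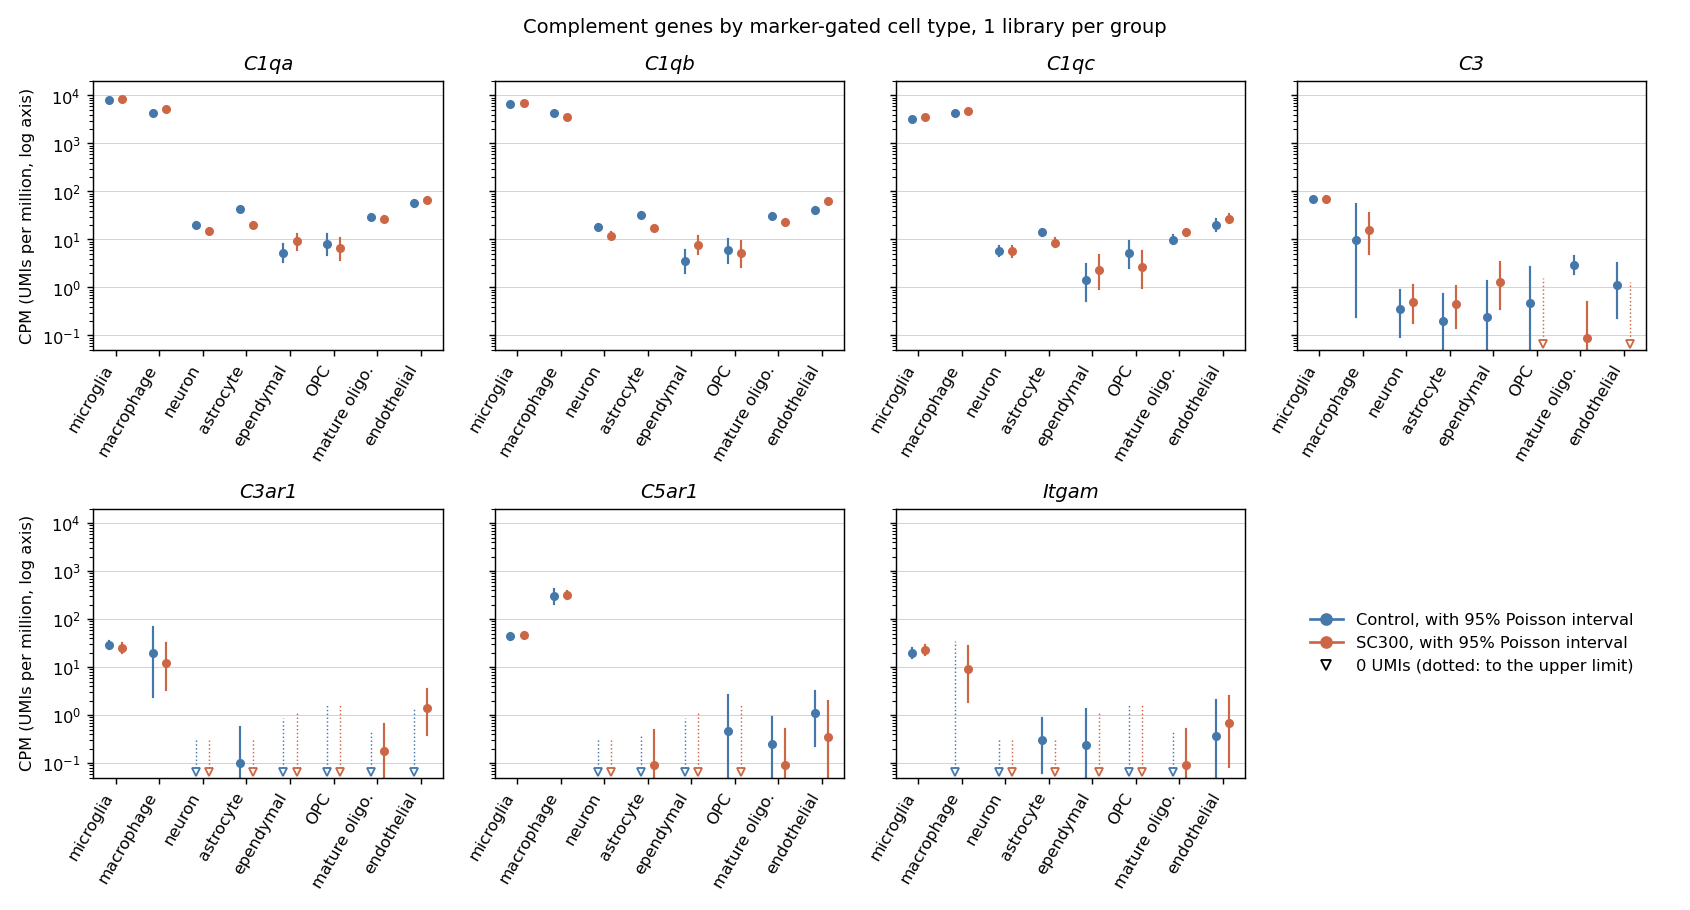
CPM of the 7 genes (log axis) in 8 marker-gated cell types of the Control and SC300 libraries, with 95% Poisson intervals for counting error. Open triangles mark a type with 0 UMIs, with a dotted line up to the upper limit. The C1q chains lie above 3000 CPM in both myeloid classes and below 70 CPM elsewhere, and *C5ar1* is higher in macrophage-like than in microglia-like cells in both libraries.

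The share of *C1qc* among the C1q UMIs was the more stable feature. *C1qc* made up 17.6% (17.3 to 17.9) of the C1q UMIs of Control microglia-like cells and 18.4% (18.1 to 18.7) of those of SC300. In macrophage-like cells its share was 33.1% (30.6 to 35.7) and 35.3% (33.9 to 36.8). Under every alternative tried, including the clusters (33.1% and 36.0%), the macrophage-like share stayed at or above 32.1% and the microglia-like share at or below 18.5%. The share of *C1qb* was 36.6% in microglia-like cells of both libraries. In macrophage-like cells it was 32.8% (30.3 to 35.4) in Control and 26.2% (24.8 to 27.5) in SC300, and the share of *C1qa* was 34.1% and 38.5%.

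**Figure D2:**
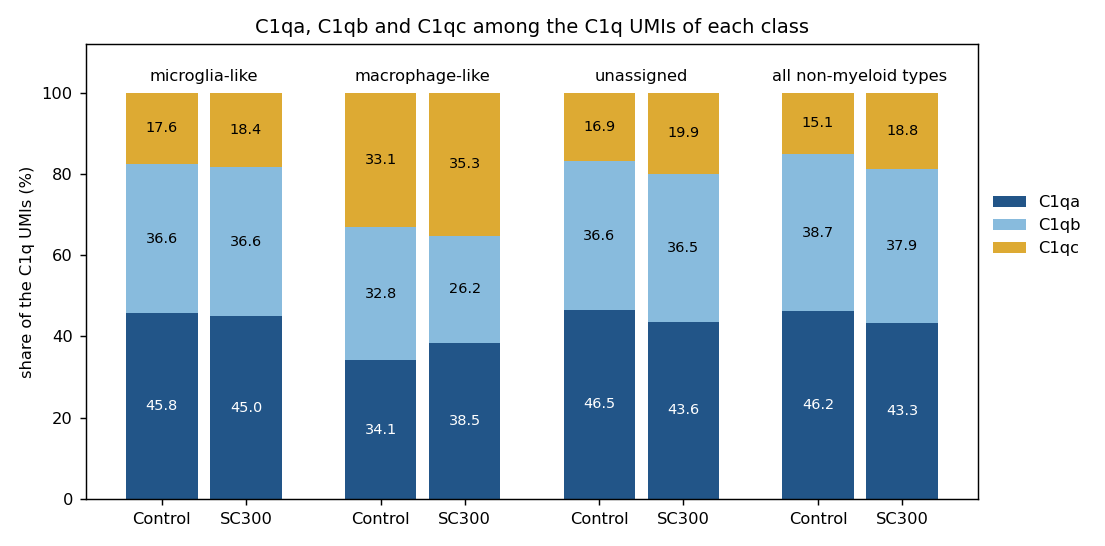
Stacked bars of the share of *C1qa*, *C1qb* and *C1qc* (%) among the C1q UMIs of each class in the Control and SC300 libraries. The *C1qc* share is 33.1% and 35.3% in macrophage-like cells and between 15.1% and 19.9% in microglia-like cells, unassigned cells and all non-myeloid types pooled.

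The same difference was seen cell by cell. Among cells with at least 20 C1q UMIs, the median *C1qc* share was 17.4% in 409 Control and 18.5% in 416 SC300 microglia-like cells. It was 32.5% in 13 Control and 37.5% in 37 SC300 macrophage-like cells. A *C1qc* share of 30% or more was found in 8 and 7 microglia-like cells, and in 10 and 32 macrophage-like cells. The classes overlapped at the edges, since the lowest macrophage-like cell was at 23.5% in Control and the highest microglia-like cell at 37.5%.

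**Figure D3:**
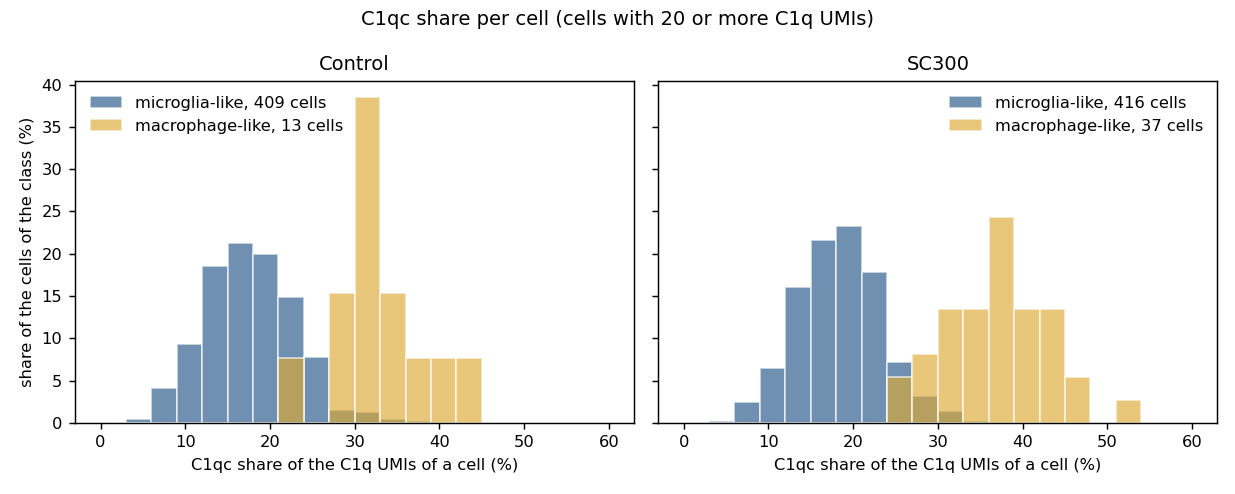
Share of the cells of a class (%) by the *C1qc* share of their C1q UMIs (%, bins of 3), for microglia-like and macrophage-like cells with at least 20 C1q UMIs. The macrophage-like cells lie to the right of the microglia-like cells in both libraries, with medians of 32.5% against 17.4% in Control and 37.5% against 18.5% in SC300.

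C1q UMIs outside the myeloid classes were few and unevenly spread. All other assigned types together held 28.6 CPM of *C1qa* in Control and 22.0 CPM in SC300. Among the 6 non-myeloid types with over 100 cells in each library, the *C1qa* level was highest in endothelial cells (56.5 and 66.9 CPM), then in astrocytes (43.9 and 20.2 CPM), mature oligodendrocytes (30.1 and 26.9 CPM) and neurons (20.5 and 15.2 CPM), with astrocytes and oligodendrocytes in the opposite order in SC300. Ependymal cells and oligodendrocyte precursors were lowest of these, between 5.30 and 9.11 CPM. These last were not separated, since the intervals of precursors (4.65 to 12.8 CPM in Control) and of the ependymal class overlapped. In Control, 19 of 2979 non-myeloid cells held at least 20 C1q UMIs each and together 81.0% of all C1q UMIs in those types. In SC300, 15 of 3154 cells held 75.6%. Of these cells, 17 and 12 also had at least 3 detected microglia markers, and Scrublet, which scores barcodes that look like mixtures of cells, called 11 and 12 of them doublets. The order of the types rested on such cells, and 2 endothelial cells in each library held 86.8% and 91.2% of the C1q UMIs of that type. The remaining non-myeloid cells were at 11.9 and 12.5 CPM for the 3 chains summed. In that remainder the order was another, with precursors highest in Control (19.3 CPM, against 15.7 CPM in endothelial cells and 6.67 CPM in mature oligodendrocytes) and ependymal cells highest in SC300 (19.2 CPM, against 14.3 and 6.46 CPM). Barcodes with under 200 detected genes, in which haemoglobin took 41.4% and 36.7% of the UMIs, held 2 and 3 UMIs of *C1qa* (3.21 and 4.82 CPM).

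Shares of cells with a UMI depended on depth. *C1qa* was detected in 13.4% of Control and 10.8% of SC300 neurons, whose median depth was 25223 and 24220 UMIs, and in 4.36% and 4.53% of precursors, at 6550 and 6825 UMIs. When every cell was thinned to 2000 UMIs, with shallower cells left out, the shares were 3.01% and 1.18% in neurons and 2.24% and 1.22% in precursors. Thinned microglia-like cells still carried *C1qa* in all 408 Control and 407 SC300 cells. The non-myeloid C1q UMIs had a balance near that of microglia, with *C1qc* at 15.1% (13.7 to 16.6) in Control and 18.8% (17.2 to 20.6) in SC300.

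Unassigned cells held 2457 *C1qa* UMIs in Control and 2495 in SC300, or 8.0% and 7.47% of the total of the gene. Most of their C1q UMIs (68.5% and 53.3%) lay in 118 and 81 cells whose best list was microglia but which missed the margin or the number of markers. In all, 89.1% of the *C1qa*, 88.8% of the *C1qb* and 89.5% of the *C1qc* UMIs of both libraries lay in the gated myeloid cells.

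*C3* was far below the C1q chains and was carried by few cells. In microglia-like cells it was at 68.5 CPM (59.8 to 78.2) in Control and 69.8 CPM (61.1 to 79.3) in SC300. A UMI was found in 87 of 422 Control cells (20.6%) and in 94 of 418 SC300 cells (22.5%), and in 6.86% and 9.34% of thinned cells. The cells were unequal. In each library 12 cells held 5 or more *C3* UMIs, the highest cell held 17 in Control and 19 in SC300, and the top 5 cells held 26.6% and 30.2% of all *C3* UMIs of the class. Macrophage-like cells held 1 UMI in Control and 5 in SC300 (9.67 and 15.5 CPM), and the upper limits of both intervals, 53.9 and 36.3 CPM, lay below the microglia-like levels.

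Of all *C3* UMIs, 71.6% in Control and 81.1% in SC300 lay in microglia-like cells. Non-myeloid types held 35 and 16 UMIs. In Control, 22 of the 35 came from 1 barcode gated as a mature oligodendrocyte, while astrocytes held 2 and 5 UMIs (0.199 and 0.449 CPM). *C3* is known as a gene of reactive astrocytes, and at this depth astrocyte *C3* was not distinguishable from the level in neurons (0.348 and 0.506 CPM), whose intervals overlapped with it.

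The receptors for the C3 and C5 fragments were low and differed in where they were highest. *C3ar1* in microglia-like cells was at 29 CPM (23.5 to 35.5) in Control and 25.3 CPM (20.1 to 31.3) in SC300. It was detected in 74 and 80 cells (17.5% and 19.1%), never with more than 3 UMIs per cell. In macrophage-like cells 2 and 4 UMIs were counted (19.3 and 12.4 CPM), with intervals that overlapped those of microglia-like cells. Of all *C3ar1* UMIs, 94.0% and 87.5% lay in microglia-like cells, and neurons held 0 UMIs in both libraries, with upper limits of 0.321 and 0.311 CPM.

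*C5ar1* was the receptor with the highest level in macrophage-like cells. It was at 300 CPM (204.0 to 425.0) in Control and 323.0 CPM (264.0 to 392.0) in SC300, against 44.1 CPM (37.2 to 52.0) and 46.6 CPM (39.6 to 54.5) in microglia-like cells. The log2 ratio of macrophage-like over microglia-like was 2.76 (2.15 to 3.33) in Control and 2.79 (2.42 to 3.16) in SC300. With clusters in place of the gate it was 1.73 and 2.28. A *C5ar1* UMI was found in 10 of 14 and 33 of 40 macrophage-like cells (71.4% and 82.5%), and in 24.4% and 26.3% of microglia-like cells. After thinning the shares were 35.7% and 55.3% against 8.09% and 7.13%. Because microglia-like cells were more numerous, they still held 73.7% and 55.0% of the *C5ar1* UMIs, and macrophage-like cells 16% and 36.9%. In neurons *C5ar1* had 0 UMIs in both libraries.

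*Itgam* was the lowest of the 7 genes in microglia-like cells, at 20.1 CPM (15.5 to 25.6) in Control and 22.9 CPM (18.0 to 28.6) in SC300. It was detected in 58 of 422 and 69 of 418 cells (13.7% and 16.5%). Its partner *Itgb2* was at 186.0 and 188.0 CPM in the same cells. Macrophage-like cells held 0 and 3 *Itgam* UMIs, and the upper limits of 35.7 and 27.3 CPM included the microglia-like level, so a difference between both classes was not detectable at this depth. Non-myeloid types held 6 and 4 UMIs in all.

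Most microglia-like cells had a UMI of 1 or none of the 4 low genes. In Control, 183 of 422 microglia-like cells (43.4%) had none of *C3*, *C3ar1*, *C5ar1* and *Itgam*. A further 168 had 1, 60 had 2, 10 had 3 and 1 had all 4. In SC300, 168 of 418 cells (40.2%) had none, 166 had 1, 66 had 2, 17 had 3 and 1 had all 4. Whether the genes shared cells more or less often than their single shares would give was not tested. After thinning, 76.0% and 76.2% had none. At 1 or a few UMIs per cell, absence from a cell does not show that the gene was not expressed there.

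The question was whether the complement genes of myeloid cells stood at other levels in rats given estradiol benzoate as neonates. Serum estradiol was reported as still raised at about the age of sampling, and its part in the ratios was not tested. In microglia-like cells the libraries were close for all 7 genes. The log2 ratio of SC300 over Control was 0.05 (0.02 to 0.07) for *C1qa*, 0.07 (0.05 to 0.10) for *C1qb* and 0.14 (0.10 to 0.18) for *C1qc*, with the median of all genes at -0.03. It was 0.03 (-0.25 to 0.30) for *C3*, -0.20 (-0.64 to 0.24) for *C3ar1*, 0.08 (-0.26 to 0.42) for *C5ar1* and 0.19 (-0.31 to 0.69) for *Itgam*. None of the 7 genes was past 1.5-fold. Of 7035 genes that reached 50 UMIs in these cells, 2.49% were higher and 4.08% were lower by 1.5-fold or more, so a count of 0 among 7 was near this background. The C1q intervals lay above 0, and they do not cover differences between rats or between dissociations. These cells had a median of 7466 UMIs in Control and of 7906 UMIs in SC300. Mitochondrial transcripts took 6.58% and 7.9% of the UMIs of the median cell. With cells thinned to 2000 UMIs the ratios were 0.05, 0.07 and 0.15 for *C1qa*, *C1qb* and *C1qc*. They were then 0.36 for *C3*, -0.54 for *C3ar1*, -0.08 for *C5ar1* and -0.24 for *Itgam*. Without cells above 20% mitochondrial UMIs, the C1q ratios were 0.05, 0.07 and 0.14. With a limit of 10% they were 0.05, 0.08 and 0.14, and with scaling without mitochondrial genes 0.07, 0.10 and 0.16. With every cell weighted alike they were 0.05, 0.07 and 0.14. Beyond the alternative settings tried, the part of depth and of mitochondrial share in the ratios was not tested. For *C3ar1* (lower in SC300) and *Itgam* (higher in SC300), the intervals of the reported ratios reached past 1.5-fold in that direction. The counts therefore did not exclude a difference of that size there.

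**Figure D4:**
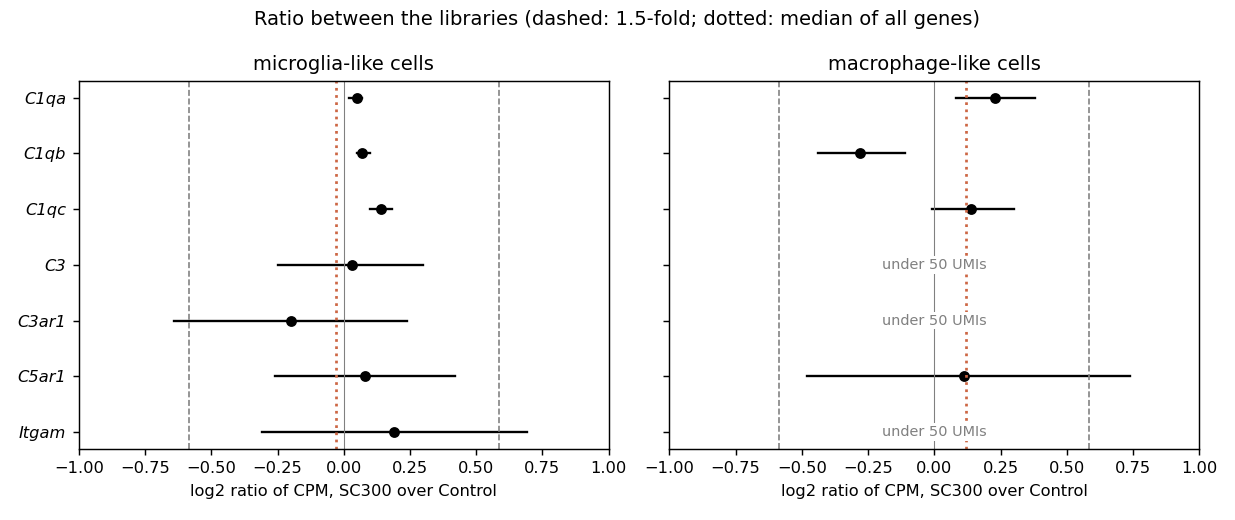
Log2 ratio of CPM, SC300 over Control, with 95% conditional binomial intervals for counting error, in microglia-like and macrophage-like cells. Dashed lines mark 1.5-fold, and the dotted line marks the median of all genes with at least 50 UMIs (-0.03 and 0.12). All plotted points lie between the dashed lines.

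In macrophage-like cells, 4 of the 7 genes had at least 50 UMIs over both libraries. *C1qa* stood at a log2 ratio of 0.23 (0.08 to 0.38), *C1qb* at -0.28 (-0.44 to -0.11), *C1qc* at 0.14 (-0.01 to 0.30) and *C5ar1* at 0.11 (-0.48 to 0.74). None was past 1.5-fold, while 15.8% of the 1051 genes measured in this class were higher and 4.76% lower by that much. The median of all genes was 0.12. The median depth was 6206 UMIs in Control and 8274 UMIs in SC300, and the median mitochondrial share was 11% and 11.2%. The direction of single chains was not stable. With every cell weighted alike the ratios were -0.15 for *C1qa*, -0.64 for *C1qb* and -0.14 for *C1qc*. With clusters in place of the gate they were 0.77, 0.26 and 0.73. Under these settings *C1qb*, or *C1qa* and *C1qc*, were past 1.5-fold. The summed C1q level was 12965 CPM in Control and 13425 CPM in SC300, with a log2 ratio of 0.05 (-0.04 to 0.14).

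Genes of the dissociation or activation response moved between the macrophage-like cells of both libraries. Of 9 such genes with at least 50 UMIs, 7 were higher in SC300 by 1.5-fold or more, with a median log2 ratio of 1.53, namely *Il1b* (3.10), *Ccl4* (2.36), *Egr1* (2.07), *Atf3* (1.73), *Fos* (1.53), *Jun* (0.99) and *Ccl3* (0.82). In microglia-like cells 2 of 11 were higher (*Il1a* at 0.68 and *Atf3* at 0.75), and the median was 0.00. The lowest there was *Egr1* at -0.32. Of all genes, 15.8% in macrophage-like and 2.49% in microglia-like cells were higher by 1.5-fold or more. The macrophage-like ratios of the response genes rested on 14 Control and 40 SC300 cells and were not recomputed under other settings. *Atf3*, for example, had 40 UMIs in Control and 413 in SC300. The part of the response genes in the macrophage-like C1q ratios was not tested. Within microglia-like cells, the level of *C1qa* differed by under 1.5-fold between cells above and below the median of *Ccl3*, *Ccl4* and *Il1b* summed. In Control it was 8066 CPM above and 8490 CPM below that median, and in SC300 8566 CPM above and 8425 CPM below it. *C3ar1* was at 36.8 CPM (28.8 to 46.4) above and 17.1 CPM (10.7 to 25.9) below that median in Control. In SC300 the values were 27.4 CPM (20.6 to 35.8) and 22.1 CPM (14.9 to 31.6), and those intervals overlapped. *C1qb* was lower above that median, at 6358 against 6894 CPM in Control and 6784 against 7109 CPM in SC300. *C5ar1* and *Itgam* were lower above it in Control (40.9 against 49.0 CPM and 19.4 against 21.0 CPM) and higher in SC300. *C1qc* was nearly level, at 3178 against 3151 CPM in Control and 3484 against 3482 CPM in SC300. *C3* was level in Control (68.6 against 68.5 CPM) and at 74.6 against 62.7 CPM in SC300, with intervals that overlapped. Cells above the median were deeper, with medians of 9614 against 5694 UMIs in Control and 10010 against 6302 UMIs in SC300, and the part of depth was not tested.

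For comparison, 9 genes that microglia use at high levels, such as *Csf1r* and *Ctss*, had a median log2 ratio of 0.04 in microglia-like cells, and none was past 1.5-fold. Of 3 disease-associated genes with enough UMIs in microglia-like cells, *Spp1* (1.27) and *Axl* (0.65) were higher in SC300, and *Apoe* was at 0.49. Of all genes of the class, 2.49% were higher by 1.5-fold or more. Counts were low, with 21 UMIs of *Spp1* in Control and 52 in SC300, and 44 and 71 of *Axl*. *Lpl*, of the same list but under the UMI limit, went the other way (12 and 5 UMIs). *Apoe* (36826 and 37823 CPM) and *Axl* (128.0 and 121.0 CPM) were highest in astrocytes. Over both libraries, *Spp1* was highest in macrophage-like cells (0 and 31 UMIs). The part of RNA from other cells in the microglia-like ratios was not tested. In macrophage-like cells, 1 of the 9 comparison genes (*Ctss*, 0.92) and 1 of 2 measured disease-associated genes (*Gpnmb*, -0.85) were past 1.5-fold, where 15.8% of all genes of the class were higher and 4.76% lower.

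Of 51 further complement genes, 47 were matched to 1 entry each in the files, and 11 of them had at least 50 UMIs in microglia-like cells. None of the 11 was past 1.5-fold, and their median log2 ratio was 0.02. Of all genes of that class, 2.49% were higher and 4.08% lower by that limit, so a count of 0 among 11 was near this background. The largest ratio was that of *Cfp*, which encodes properdin of the alternative arm, with 232.0 CPM in Control and 338.0 CPM in SC300 and a log2 ratio of 0.55 (0.41 to 0.68). *C2*, the protease that follows C1 in the classical arm, was highest in microglia-like cells at 44.8 and 56.8 CPM. In macrophage-like cells 6 had enough UMIs, and *Colec12*, a scavenger receptor with a collectin domain, was past 1.5-fold, at 329.0 and 721.0 CPM and a log2 ratio of 1.13 (0.61 to 1.70). With 15.8% of all genes of the class higher by that limit, 1 of 6 was near the background.

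The cascade was spread over cell types, compared here over 8 gated types. The mural, stromal, tanycyte and lymphocyte gates took few cells and were left out. The mural gate took 18 and 29 cells, while the cluster named mural held 186 Control and 200 SC300 cells. The tanycyte gate took 4 and 0 cells. A cluster whose leading genes included *Crym* and *Frzb* stayed unnamed, with 301 and 183 cells. A highest type named below is therefore the highest of these 8 gated types only. The proteases that associate with C1q were low in the cells that held C1q. *C1r* and *C1s* were highest in the ependymal class (53.7 and 59.8 CPM, and 71.0 and 54.0 CPM), followed by astrocytes, while *C1r* was at 7.41 and 6.01 CPM in microglia-like cells and *C1s* had 0 UMIs in Control microglia-like cells and stood at 0.601 CPM in SC300. *Masp1*, a protease of the lectin arm, was highest in oligodendrocyte precursors at 101.0 and 115.0 CPM. *Cfd*, the protease factor D of the alternative arm, was at 2320 and 2273 CPM in macrophage-like cells and at 2.16 and 2.71 CPM in microglia-like cells. *Fcna*, a ficolin of the lectin arm, was at 1267 and 1057 CPM in macrophage-like and at 51.2 and 40.6 CPM in microglia-like cells. Transcripts of the terminal components were scarce, and *C8g*, the one with the most UMIs, was at 8.19 and 7.48 CPM in the ependymal class and at 6.34 and 7.17 CPM in mature oligodendrocytes.

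Regulators were also divided. *Clu*, a soluble inhibitor of the terminal complex, was highest in astrocytes at 4327 and 3574 CPM. *Serping1*, which inhibits C1r and C1s, was highest in the ependymal class at 33.9 and 27.0 CPM. *Vtn* and *Cd59*, which act against the terminal complex, were highest of the 8 types in the endothelial gate, at 134.0 and 145.0 CPM and at 95 and 77.7 CPM. That gate also held the mural marker list at a summed 654.0 and 731.0 CPM, and the part of mural cells in these levels was not tested. *Cr1l*, a membrane regulator, stood at 83.3 and 92.1 CPM in the endothelial gate, and 12 UMIs in Control macrophage-like cells gave it 116.0 CPM. *Cd55*, which speeds the decay of the C3-cleaving enzymes, was highest in neurons (8.52 and 13.8 CPM), as was *Sez6l2* (186.0 and 177.0 CPM). *Sez6* was highest in astrocytes (172.0 and 190.0 CPM) and *Susd4* in oligodendrocyte precursors in Control (80.8 CPM, and 57.9 CPM in SC300) but in neurons in SC300 (66.7 CPM, and 52.8 CPM in Control). Of the genes listed as receptors, *Cd93* was highest in endothelial cells (230.0 and 255.0 CPM), *Lrp1* in astrocytes (724.0 and 714.0 CPM), *C1qbp* in neurons (186.0 and 197.0 CPM) and *Calr* in microglia-like cells (1902 and 1822 CPM). Of the 7 tanycyte markers, *Crym* was at 694.0 and 1095 CPM in the ependymal class. The other members were at or below 10.1 CPM in both libraries. The ependymal class also held the mural marker list at a summed 255.0 and 838.0 CPM, with a median cell at 0. It took 214 and 151 cells, against 73 and 56 in the cluster named ependymal. The part of tanycytes and other cells in its levels of *C1r*, *C1s*, *Serping1* and *C8g* was not tested.

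**Figure D5:**
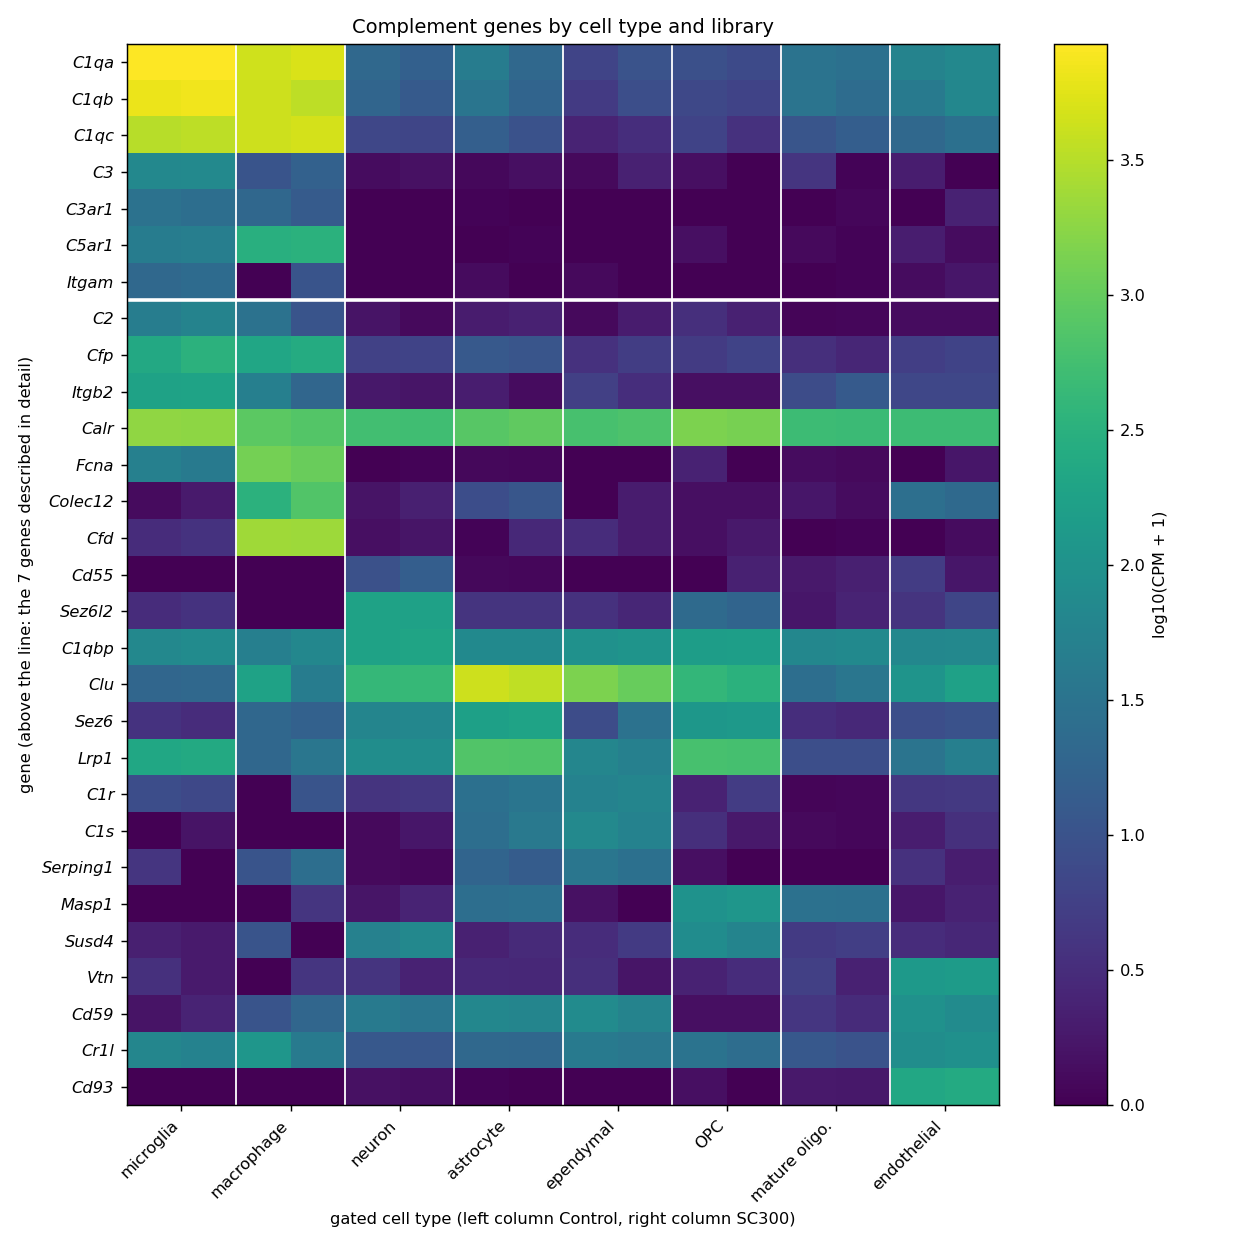
Heat map of log10(CPM + 1) of the 7 genes (above the white line) and of 22 further complement genes with at least 100 UMIs in their highest type, in 8 gated types. The left column of each type is Control and the right column SC300. The C1q chains fill both myeloid columns, and *Cfd* and *Fcna* stand out in macrophage-like cells. With both libraries pooled, *C1r*, *C1s* and *Serping1* are highest in the ependymal class. Next are astrocytes for *C1r* and *C1s*, and macrophage-like cells for *Serping1*.

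Across 7 gated types in both libraries (14 points, which share libraries), the profiles of log2(CPM + 1) nearest to *C1qa* were those of *C1qb* (r = 0.999), *Ctss* (0.997) and *C1qc* (0.996). For *C1qb* they were *C1qa* (0.999), *Ctss* (0.997) and *Trem2* (0.995), and for *C1qc* they were *C1qa* (0.996), *Aif1* (0.995) and *Ctss* (0.995). *C3* was most like *Tnfsf13b* (0.976), *Olr1* (0.974) and LOC102549869 (0.973), and *C3ar1* like *Tmem273* (0.997), *Ncf4* (0.995) and *Il7r* (0.994). *C5ar1* was most like *Cd33*, AABR07029272.1 and *Arhgap30* (0.994 each), and *Itgam* like *Cysltr1* (0.997), *Mrgprx3* (0.996) and *Apobec1* (0.996). Macrophage-like cells were not among these types, since Control held under 20 of them. Such values chiefly record that these genes were high in microglia-like cells and low elsewhere.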

How the data were processed

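The authors counted reads per gene and cell barcode with Cell Ranger (version 3.0.1 per the file headers and the processing notes of the submitters) against an Ensembl rat transcriptome and deposited raw UMI counts for each library, without normalization. The methods also name a merging step, and whether it changed the deposited counts is not given in the sources used here. The numbers of cells given by the study after its own filtering are smaller than those kept here.

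From these counts, barcodes with at least 200 detected genes were kept. Each cell was assigned to the marker list, of 14, with the highest mean ln(1 + 10000 × UMI share), if 3 markers had a UMI and the mean was at least 2 times that of the next list. UMIs were summed per type and library and scaled to CPM. With 1 library per group no test was made. Intervals were 95% Poisson (CPM), Clopper-Pearson (shares) and conditional binomial (ratios), for counting error only. Ratios needed 50 UMIs over both libraries and were read against a limit of 1.5-fold. Genes were named as all 7 complement genes, further complement genes with at least 100 UMIs in their highest type (1 of them is not reported here), and the 3 genes of nearest profile (Pearson r over types with at least 20 cells in each library). Genes of the other lists were named where past 1.5-fold; *Apoe*, *C8g*, *Csf1r* and those by *C3* class were named after their values were seen. Thinning drew 2000 UMIs per cell (seed 1). Doublets were called with Scrublet and kept. Clusters were an alternative (30 principal components, resolution 0.7, 1995 variable genes without the complement genes), and clusters led by another type or of low depth stayed unnamed, by rules set with the data in view. The ratio step was tested on simulated data. The complement genes, the lists and the comparisons were chosen with earlier results of these data known. *Cfb* is listed 2 times in the files, and no value was used. *Mbl2*, *Fcn1*, *Csmd3* and the markers *Pecam1*, *Foxj1*, *Dio2*, *Ccr2*, *Cd79a*, *Lhfpl3* and *Plac8* were not analysed here. Promoter sequences came from RefSeq (GRCr8) and were matched for 5 of 7 genes. Tools were scanpy 1.11.5, igraph 0.11.9, scipy 1.17.1, pandas 2.3.3, numpy 2.4.6 and matplotlib 3.10.9 in Python 3.11.15.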

Additional observations from a re-analysis of the deposited data

How the results depend on the processing

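No paired analysis was possible because each group holds 1 library, and no replicate could be left out. Of the ratios recomputed, those reported past 1.5-fold (macrophage-like over microglia-like, for *C1qa*, *C1qb* and *C5ar1*) kept their direction. Ratios reported within 1.5-fold changed sign under at least 1 alternative for *C1qc* between the classes, for *C1qa*, *C1qb*, *C1qc* and *C5ar1* of macrophage-like cells between the libraries, and for *C3*, *C5ar1* and *Itgam* of microglia-like cells. Genes of the other lists were not recomputed. Of 254 alternative values for 49 results, 185 stayed inside the counting interval of the reported value and 69 moved outside it, and the cause was not tested. With clusters in place of the gate, the log2 ratio of SC300 over Control was 0.01 for *C1qa* and 0.04 for *C1qb* in microglia-like cells, and 0.77, 0.26 and 0.73 for *C1qa*, *C1qb* and *C1qc* in macrophage-like cells. The share of UMIs in myeloid cells was 90.5%, 90.4%, 91.6%, 83.4% and 95.8% for *C1qa*, *C1qb*, *C1qc*, *C3* and *C5ar1*, and 80.0% of the *C3* UMIs lay in microglia-like cells. The macrophage-like over microglia-like ratios were -2.00, -1.74, -0.67 and 1.73 (*C1qa*, *C1qb*, *C1qc* and *C5ar1*, Control) and -1.25, -1.51, -0.05 and 2.28 (SC300). Without the margin, these myeloid shares were 92.7%, 92.5%, 93.2%, 82.4% and 94.5%, the microglia-like share of *C3* was 81.4%, and the SC300 ratios were -0.82, -1.07 and 0.36 for the C1q chains. With 4 markers and a margin of 3 times, the macrophage-like ratio of SC300 over Control was 0.03 for *C1qa*, and the Control ratios between classes were -0.70, -0.42 and 0.63. Without cells above 20% mitochondrial UMIs, the latter were -0.48 for *C1qb* and 0.59 for *C1qc*.

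With cells thinned to 2000 UMIs, the ratio of SC300 over Control was 0.36 for *C3* in microglia-like cells and -0.18, -0.78 and -0.19 for the C1q chains in macrophage-like cells. The ratios between classes were -0.58, -0.27 and 0.74 in Control, and -0.81 and -1.12 (*C1qa* and *C1qb*) in SC300. The *C1qc* share of Control microglia-like C1q UMIs was 17.3%. Microglia-like cells with a UMI were 6.86% and 9.34% for *C3*, 7.11% and 5.41% for *C3ar1*, 8.09% and 7.13% for *C5ar1*, 4.41% and 3.69% for *Itgam* (Control and SC300) and 98.5% for *C1qc* in SC300. With every cell weighted alike, the macrophage-like ratios of SC300 over Control were -0.15, -0.64 and -0.14, and the ratios between classes -0.61, -0.39 and 0.67 in Control and -0.80 and -1.09 in SC300. Scaling by the median ratio gave 0.08 for *C1qa* and 0.10 for *C1qb* in microglia-like cells. With a minimum of 20 UMIs, 5.00% of genes were higher and 6.17% lower by 1.5-fold in microglia-like cells, and 24.1% and 9.35% in macrophage-like cells. With 100 UMIs, 1.52% and 2.58% were higher and lower in microglia-like cells. The ratios between classes and the *C1qc* shares were alternatives added after seeing the data, as was leaving out the Control macrophage-like cell with the most C1q UMIs. The counts of *C3*, *C3ar1* and *Itgam* in macrophage-like cells were too low for a ratio.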

Other observations

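The microglia-like cells with the most *C3* also held transcripts of the class II major histocompatibility complex, which presents antigen to T cells. These genes were chosen after their values were seen. In cells with 5 or more *C3* UMIs, *Cd74*, the invariant chain, was at 1002 CPM in Control and 335.0 CPM in SC300, against 60.6 and 36.7 CPM in cells with no *C3* UMI. *RT1-Da* was at 588.0 and 267.0 CPM against 12.9 and 4.78 CPM. Each high class held 12 cells, and 1 cell carried 53.6% (Control) and 78.6% (SC300) of the UMIs of *RT1-Da*, *RT1-Ba*, *RT1-Db1* and *Cd74* in it. By cells, at least 1 class II UMI was found in 22.1% (17.8 to 26.9) of the Control cells without *C3*, in 45.3% (33.8 to 57.3) with 1 to 4 and in 83.3% (51.6 to 97.9) with 5 or more *C3* UMIs. In SC300 the shares were 15.1% (11.4 to 19.5), 31.7% (21.9 to 42.9) and 50% (21.1 to 78.9). With 3 or more *C3* UMIs as the limit, the share was 68.0% (46.5 to 85.1) of 25 cells in Control and 37.5% (18.8 to 59.4) of 24 cells in SC300. Median depth was 7058, 9308 and 10136 UMIs in Control and 7671, 8150 and 11232 UMIs in SC300. After thinning to 2000 UMIs the shares were 12.1%, 21.6% and 33.3% in Control and 6.39%, 12.2% and 25% in SC300, with intervals of the highest class from 9.92% to 65.1% and from 5.49% to 57.2%. Thinned cells with 3 or more *C3* UMIs were at 36.0% (18.0 to 57.5) in Control and 12.5% (2.66 to 32.4) in SC300. The SC300 share was close to that of the cells with 1 to 4, and both classes share the cells with 3 or 4 *C3* UMIs. In SC300 the size of the difference thus depended on the limit chosen, and a steady rise with *C3* was not shown.

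The same cells held less *P2ry12*, a receptor of resting microglia, at 181.0 and 168.0 CPM with 5 or more *C3* UMIs against 365.0 and 336.0 CPM with none. *Tmem119* was at 927.0 and 922.0 CPM against 1351 and 1322 CPM. *C1qa* was at 7582 and 8382 CPM against 8384 and 8545 CPM. The macrophage marker *Pf4* was at 60.3 and 30.5 CPM against 77.6 and 51.8 CPM. Each library pools 3 rats, and whether the cells with 5 or more *C3* UMIs came from 1 or several rats was not tested.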
